A study of Rattus norvegicus with 10 samples.

Results

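The hairpins of miR-322, miR-503, miR-351, miR-542 and miR-450 are neighbours on the X chromosome and form one miRNA cluster. Its members were taken by mature name, 9 names in all, and each of the 9 was a row among the 765 rat miRNAs of the deposited table. Of these, 8 averaged at least 1 RPM (read numbers scaled to the library total) over the libraries and entered the tests, while miR-542-5p was listed at 0 in every library. Small RNA of the hippocampus was sequenced in 10-week-old Wistar rats. A sham-operated group of 5 libraries was set against 5 libraries of the 2-VO group, whose common carotid arteries were occluded on both sides. This operation lowers the blood flow of the brain and serves as a model of chronic cerebral hypoperfusion. The labels name no transgene and do not state sex, time after surgery, or whether each library came from its own animal, so the spread between libraries may be technical.

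The rodent miR-322 corresponds to human miR-424, and hairpins of such a cluster can be cut from a shared primary transcript. miRNAs select their targets mainly through the seed, a short run near the 5′ end. miR-322-5p and miR-503-5p are known as repressors of cell cycle genes such as Cdc25a and the D and E cyclins, and both rise when muscle precursors differentiate. miR-542-3p is known to repress survivin (Birc5), an inhibitor of apoptosis. miR-351-5p carries the seed of the miR-125 family, and human miR-424 has been described as induced by hypoxia in endothelial cells.

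RefSeq (build GRCr8) held a mature sequence for all 9 members. They are shown because the seeds and one near-identical pair decide how the values can be read. Bases 2 to 8, the seed, are in capitals, and sequences run 5′ to 3′.
miR-322-5p: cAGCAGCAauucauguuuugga
miR-322-3p: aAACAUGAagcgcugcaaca
miR-503-5p: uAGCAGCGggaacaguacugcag
miR-351-5p: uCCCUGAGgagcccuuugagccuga
miR-542-3p: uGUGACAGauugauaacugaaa
miR-542-5p: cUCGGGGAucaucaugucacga
miR-450b-5p: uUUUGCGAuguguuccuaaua
miR-450b-3p: aUUGGGGAcgcuucgcauuca
miR-450a-5p: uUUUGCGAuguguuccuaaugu

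Within the cluster only miR-450a-5p and miR-450b-5p shared a whole seed. The seeds of miR-322-5p and miR-503-5p differ at a single base, A8G, counted from the 5′ end with the base of miR-322-5p named first. Outside the cluster, the seed of miR-322-5p is also that of miR-15b-5p, miR-16-5p, miR-195-5p and miR-497-5p, and the seed of miR-351-5p is that of miR-125a-5p and miR-125b-5p. The seeds of miR-322-3p, miR-503-5p, miR-542-3p, miR-542-5p and miR-450b-3p were held by no other rat miRNA of the RefSeq table. In RefSeq order the 6 hairpins run Mir322, Mir503, Mir351, Mir542, Mir450b-1 and Mir450a1 on the minus strand. They lie between Plac1 and Hprt1, and the first 3 overlap the long non-coding RNA LOC102550366.

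miR-450a-5p and miR-450b-5p are the same over their first 20 bases and first differ at base 21 (G21A, miR-450a-5p named first). A read that ends within those 20 bases matches both names, and the sources used here do not say how such reads were counted. The levels of this pair may therefore not be independent measurements. Their hairpins are printed with the mature arms in capitals.
Mir450a1: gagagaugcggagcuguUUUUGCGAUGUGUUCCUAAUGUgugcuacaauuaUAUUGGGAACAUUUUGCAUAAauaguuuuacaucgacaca
Mir450b-1: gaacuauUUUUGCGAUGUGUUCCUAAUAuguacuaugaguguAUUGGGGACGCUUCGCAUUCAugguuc

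The RPM values stood for whole reads at 13032805 to 13850400 reads per library, and no value under 10 reads was listed, so a 0 means fewer than 10 reads. Between 60.3% and 78.0% of those reads fell on listed miRNAs. Of the marker lists for cell types, the neuronal one summed to 171311 to 222620 RPM over the 10 libraries and had 6 of its 6 miRNAs listed. For this cluster sham replicate 1 and 2-VO replicate 7 stood apart. The members' median deviation from their own means was -0.30 and -0.32 on the log2(RPM + 1) scale there, against -0.089 and -0.15 for the median of all 474 miRNAs tested. In the other 8 libraries the members' median deviation lay between 0.014 and 0.16. The share of reads on listed miRNAs was 68.1% in sham replicate 1 and 64.2% in 2-VO replicate 7, and it was lower in 2-VO replicate 3 (60.3%). There the members' median deviation was 0.014, and 3 members lay below their own means, among them miR-503-5p at -0.40. The part of that share in the low levels was not tested.

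Levels of the members spanned a wide range. Since each read stands for one mature miRNA, RPM is not scaled by length, but ligation and PCR can favour some sequences, so an order of levels is an order of reads. miR-450a-5p was the most abundant member and ranked 169 of the 765 rows. Its values were 116, 158, 155, 153 and 176 RPM in sham replicates 1 to 5. In 2-VO replicates 3, 5, 6, 7 and 8 they were 167, 161, 171, 120.0 and 161 RPM. Sham replicate 1 and 2-VO replicate 7 were the lowest of their groups, and the groups overlapped.

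miR-450b-5p followed, with 99.3, 133, 136, 133 and 139 RPM in the sham libraries. The 2-VO libraries, in the same order as before, held 147, 136, 143, 101 and 140.0 RPM. The same libraries were lowest as for miR-450a-5p, and the ratio of miR-450a-5p to miR-450b-5p stayed between 1.14 and 1.27 in all 10 libraries. Together these rows, which may share reads, made up 57.7% to 62.8% of the summed RPM of the members.

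miR-542-3p, the survivin-targeting arm, stood at 64.5, 79.3, 78.3, 84.8 and 88 RPM in sham libraries. In 2-VO libraries it stood at 80.2, 83.4, 93.3, 64.5 and 79.9 RPM. Its lowest values were again in sham replicate 1 and 2-VO replicate 7, and its range did not overlap that of miR-450b-5p above it.

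miR-322-3p held 41.4, 51.3, 56.9, 66.3 and 53.3 RPM in sham libraries and 52.6, 57.0, 55.6, 37.9 and 56.5 RPM in 2-VO libraries. miR-322-5p, the arm with the miR-15/16 seed, held 10.8, 14.8, 14.0, 13.2 and 15.7 RPM in sham libraries. Its 2-VO values were 14.1, 13.8, 12.9, 11.6 and 16.8 RPM. Both arms were lowest in sham replicate 1 within the sham group and in 2-VO replicate 7 within the 2-VO group.

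miR-351-5p followed another pattern, with 37.3, 49.8, 36.1, 39.5 and 58.0 RPM in sham libraries. In 2-VO libraries it stood at 36.0, 41.5, 53.8, 42.7 and 34.1 RPM. Its highest values were in sham replicate 5 and 2-VO replicate 6, and 2-VO replicate 7, at 42.7 RPM, was not low in its group. Over the 10 libraries miR-351-5p was below miR-322-3p in 8, and the ranges of the 2 overlapped. The ratio of miR-322-3p to miR-351-5p within a library ran from 0.89 to 1.68. The order of these neighbours was thus not the same in every library, and their difference was not tested.

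miR-503-5p was near the lower end of the table, at 2.02, 2.67, 3.05, 2.07 and 2.76 RPM in sham libraries. The 2-VO values were 1.60, 2.60, 3.04, 2.63 and 2.17 RPM, with the lowest in replicate 3. miR-450b-3p held 1.59, 2.37, 2.06, 1.92 and 2.15 RPM in sham libraries and 1.53, 1.99, 1.75, 0.977 and 1.95 RPM in 2-VO libraries. These 2 members rest on 13 to 40 reads per library. Their coefficients of variation over the 10 libraries, 19.3% and 21.4%, were close to the 17.4% and 20.2% that counting alone gives, whereas for miR-450a-5p it was 13.2% against 2.20%. Differences between libraries in miR-503-5p and miR-450b-3p are therefore hardly resolved at this depth.

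**Figure D1:**
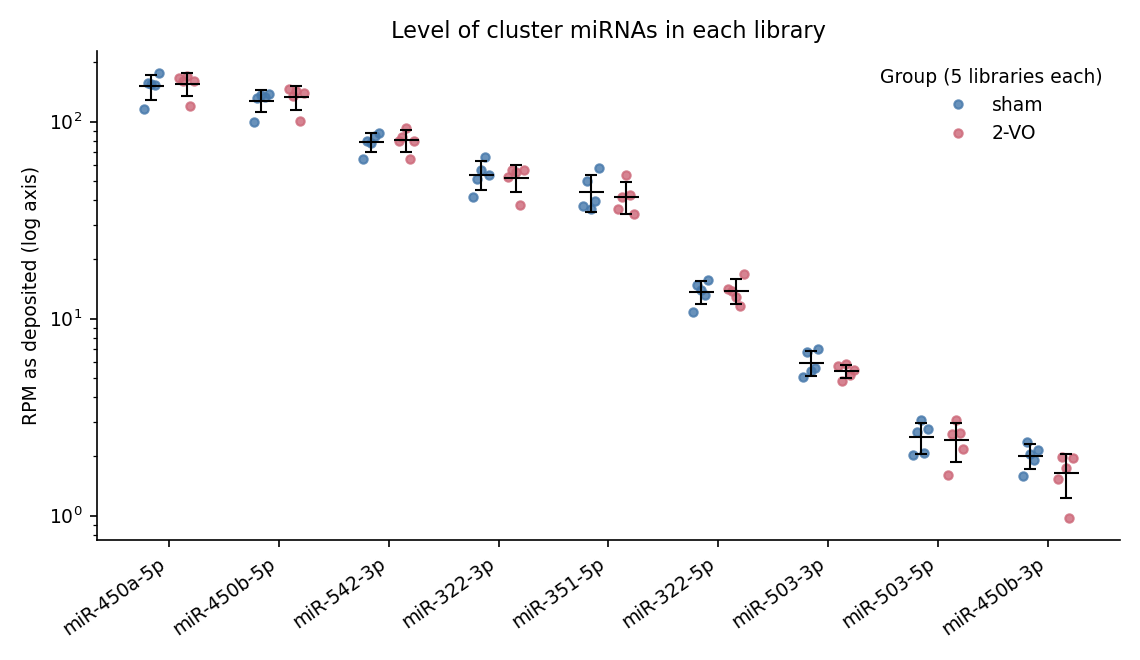
RPM as deposited (log axis) of the 8 members above the filter and of miR-503-3p, by group; points are libraries, bars the mean ± SD of 5 libraries. Means fall from 154 RPM for miR-450a-5p to 1.83 RPM for miR-450b-3p over the 10 libraries, and the points of sham and 2-VO overlap for each miRNA.

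The arms of the hairpins were used unequally, and the favoured arm differed along the cluster. From miR-322 the 3p arm took 79.6% ± 2.45 of the hairpin's RPM in the sham group and 78.8% ± 2.00 in the 2-VO group (± SD, 5 libraries each), with a range of 76.6% to 83.4%. From miR-503, whose 3p arm is no member, the 3p arm took 70.4% ± 3.63 and 69.4% ± 5.59. The 5p arm, the one known to repress cell cycle genes, was thus the less abundant one in every library for both hairpins. The 3p arm was higher by 3.28- to 5.03-fold for miR-322 and by 1.78- to 3.59-fold for miR-503. Of all 132 hairpins with both arms above the filter, 46.2% had the higher mean in the 3p arm. The hairpin of miR-322 is shown with its 5p and then its 3p arm in capitals.
Mir322: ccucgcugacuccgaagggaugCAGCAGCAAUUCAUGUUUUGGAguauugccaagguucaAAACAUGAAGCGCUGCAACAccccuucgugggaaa

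For miR-542 only the 3p arm was listed above 0. With miR-542-5p under 10 reads in each library, miR-542-3p was at least 85.9-fold higher. miR-351 was the mirror image, since miR-351-3p was listed at 0 throughout and miR-351-5p was at least 47.2-fold higher than 10 reads. The miR-450 hairpins also gave mostly 5p reads. miR-450a-3p was listed in 7 of 10 libraries, at 0.722 to 1.37 RPM, and miR-450b-3p took 0.960% to 1.76% of its hairpin's RPM. The 5p share of each miR-450 hairpin may include reads of the other.

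**Figure D2:**
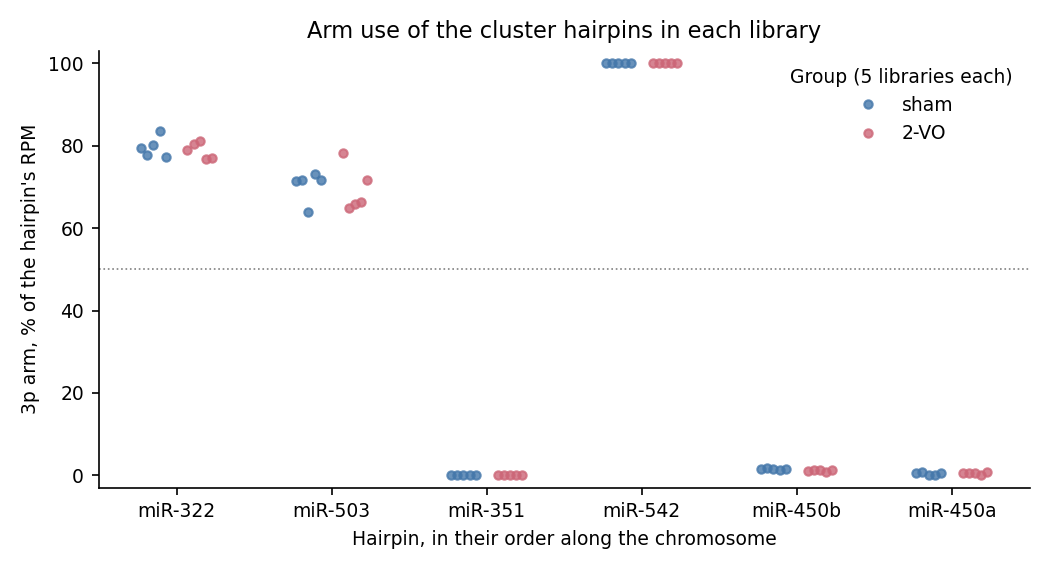
Share of each hairpin's RPM on the 3p arm (vertical axis, percent) for the 6 hairpins in chromosomal order; points are libraries, 5 sham and 5 2-VO. miR-322 and miR-503 lie between 64.0% and 83.4%, miR-542 at 100% because its 5p arm is listed at 0, and miR-351, miR-450b and miR-450a under 2%.

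Comparing 2-VO with sham asks whether carotid occlusion went with a difference in these miRNAs. None of the 8 members passed. The mean of miR-450a-5p was 151 ± 22.0 RPM in the sham group and 156 ± 20.6 RPM in the 2-VO group (± SD, 5 libraries each). Its log2 fold change was 0.045 with an SE of 0.13 (adjusted p = 0.96 by limma). miR-542-3p stood at 79.0 ± 9.0 and 80.3 ± 10.3 RPM, and its log2 fold change of 0.020 had a 95% interval of -0.24 to 0.28. For miR-322-5p, the arm with the miR-15/16 seed, the levels were 13.7 ± 1.87 and 13.9 ± 1.94 RPM and the interval ran from -0.26 to 0.30. miR-322-3p stood at 53.9 ± 9.02 and 51.9 ± 8.0 RPM (interval -0.36 to 0.26).

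miR-351-5p averaged 44.1 ± 9.45 RPM under sham surgery and 41.6 ± 7.71 RPM under 2-VO, with an interval of the log2 fold change from -0.41 to 0.26. miR-503-5p stood at 2.51 ± 0.450 and 2.41 ± 0.545 RPM (interval -0.38 to 0.27) and miR-450b-5p at 128 ± 16.3 and 133 ± 18.8 RPM (interval -0.22 to 0.34). The member with the lowest p was miR-450b-3p, at 2.02 ± 0.291 and 1.64 ± 0.412 RPM. Its log2 fold change was -0.20 with an SE of 0.15 (adjusted p = 0.82 by limma, exact two-sided permutation p = 0.13 before adjustment). The log2 fold change of miR-450b-3p was -0.10 without 2-VO replicate 7, -0.082 with a pseudocount of 5 and -0.32 with voom.

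By the moderated test of limma, 0 of the 8 members had an adjusted p under 0.05, as did 0% of the 474 miRNAs tested. At an unadjusted p under 0.05 there were 0 members, against 24 miRNAs or 5.06% of all. Voom on whole reads and an exact permutation test per miRNA also called 0 of the 474, with 25 and 32 at that unadjusted level. Of the members 4 were higher and 4 lower in 2-VO, where 62.2% of all miRNAs were lower, and the median log2 fold change was -0.016 for the members and -0.051 for all. The sign of miR-322-3p turned under 3 other scalings, by listed miRNA reads (0.0057), TMM factors (0.011) and median-of-ratios factors (0.0028). On the log2(RPM + 1) scale the 95% interval lay within 1.5-fold in either direction for each of the 8 members and for 406 of the 474 miRNAs. This scale compresses differences of low miRNAs, and for miR-450b-3p the interval passed 1.5-fold with a pseudocount of 0.5 (-0.65 to 0.15) and with voom (-0.79 to 0.14). It did so too, down to -0.60, when any one of 3 libraries was dropped (sham replicate 1, and replicates 5 and 8 of 2-VO). The groups overlapped for all 8 members, while 0.633% of the 474 miRNAs had groups that did not. The summed RPM of the members was 475 ± 60.6 under sham surgery and 481 ± 58.4 under 2-VO. Leaving out both sham replicate 1 and 2-VO replicate 7 put miR-322-5p at -0.00079 and gave 0 members past the threshold.

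**Figure D3:**
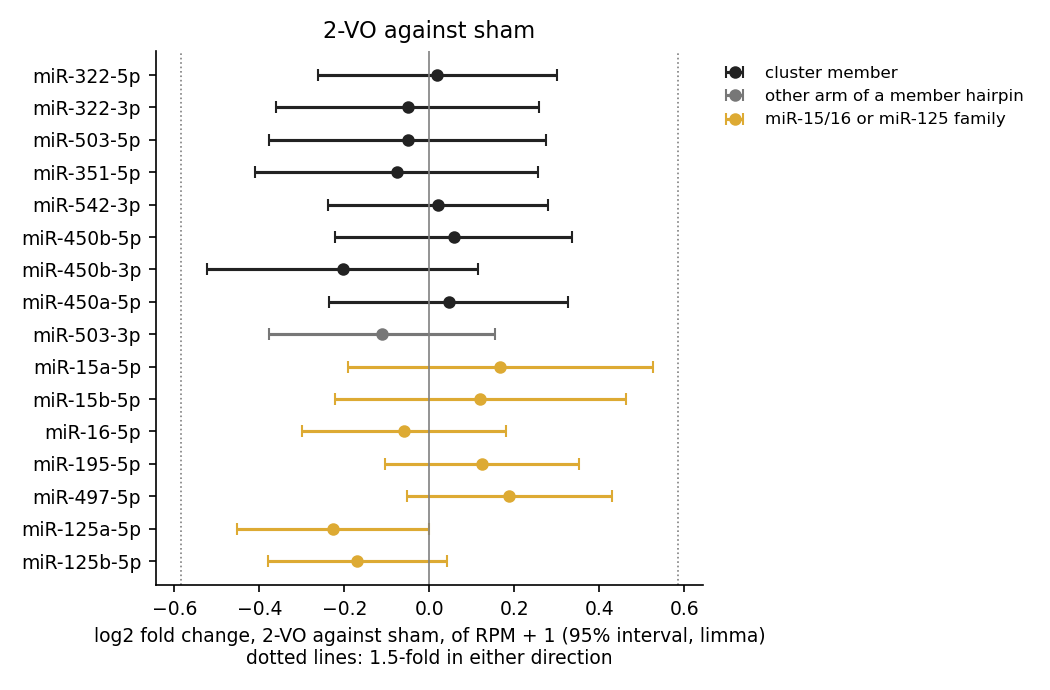
Log2 fold change of 2-VO against sham (horizontal axis, log2(RPM + 1) scale) with 95% limma intervals for 8 members, miR-503-3p and 7 miRNAs of the miR-15/16 and miR-125 families from other clusters. Every member's interval holds 0 and stays inside the dotted 1.5-fold lines; the widest reach is that of miR-450b-3p, to -0.52.

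The balance of 5p and 3p arms could be tested for 3 hairpins of the cluster, and 0 passed, as did 0% of 132 hairpins. For miR-450b the 3p share was 1.57%, 1.76%, 1.49%, 1.42% and 1.53% in sham libraries. In 2-VO libraries it was 1.03%, 1.44%, 1.20%, 0.960% and 1.37%. The groups overlapped only between 1.42% and 1.44%, and the log2 ratio of 5p to 3p was higher by 0.26 with an SE of 0.10 in 2-VO (95% interval 0.044 to 0.48, adjusted p = 0.38 by limma, exact two-sided permutation p = 0.016 before adjustment). At an unadjusted p under 0.05 this was 1 of the 3 hairpins, and 11.4% of all 132. The difference was 0.14 with a pseudocount of 5, and 0.21 without 2-VO replicate 3. It was 0.22 with both sham replicate 1 and 2-VO replicate 7 left out, and 0.22 in a fit with a block for replicate number. In each of these settings the unadjusted p was not under 0.05. The 3p arm of this ratio rests on 13 to 32 reads. For miR-322 the difference was 0.070 (interval -0.19 to 0.33) and for miR-503 0.061 (interval -0.23 to 0.35).

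The cluster supplied a small part of each seed it shares with other loci. Reads with the miR-15/16 seed from miR-322-5p, miR-15b-5p, miR-16-5p, miR-195-5p and miR-497-5p summed to a mean of 435 RPM in the sham group and 441 RPM in the 2-VO group. Of that sum miR-322-5p held 3.14% ± 0.185 and 3.14% ± 0.348. miR-15a-5p, counted in the family by name, stood at 5.75 ± 1.27 and 6.60 ± 1.59 RPM. miR-16-5p led that family, at 255 ± 27.4 and 245 ± 27.2 RPM, followed by miR-195-5p at 118 ± 10.4 and 129 ± 12.4 RPM. Of these 4 relatives by seed 3 had a log2 fold change above 0 and 0 passed (limma), with miR-497-5p at 0.19 (adjusted p = 0.77). miR-351-5p held 0.291% ± 0.0543 and 0.312% ± 0.0442 of the RPM it shares in seed with miR-125a-5p and miR-125b-5p. Sham means of these 2 relatives were 4886 ± 560 and 10257 ± 974 RPM, and 2-VO means 4173 ± 469 and 9127 ± 938 RPM (log2 fold changes -0.23 and -0.17, limma adjusted p = 0.76 and 0.77).

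Levels of miR-450a-5p, miR-450b-5p, miR-542-3p and the miR-322 arms covaried across libraries. Correlations of log2(RPM + 1) were computed for the 28 pairs of the 8 members over the 10 libraries, which share each library's divisor. A total of 6 pairs passed (Pearson, permutation test with 100000 resamples, two-sided, Benjamini-Hochberg over the 28 pairs), all of them among these 5 miRNAs. With Spearman's rho 0 of the 28 passed, and 2 had an unadjusted p under 0.05 against 10 with Pearson's r. The highest r, 0.97, was that of miR-450a-5p and miR-450b-5p, which may share reads (rho = 0.85, permutation adjusted p = 0.020 for r and 0.087 for rho). Without the 2 libraries farthest from the median it was 0.65.

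The other pairs that passed joined miRNAs with different seeds. miR-542-3p and miR-450a-5p gave r = 0.93 (permutation p = 0.0014, adjusted p = 0.020) and rho = 0.76 (permutation p = 0.015, adjusted p = 0.21). miR-322-3p and miR-542-3p gave r = 0.83 (permutation adjusted p = 0.040) and rho = 0.55 (adjusted p = 0.38). miR-322-5p and miR-450a-5p gave r = 0.80 (permutation adjusted p = 0.040) and rho = 0.62 (adjusted p = 0.34). The arms of miR-322, cut from one hairpin, gave r = 0.60 and rho = 0.24 (permutation adjusted p = 0.12 and 0.76).

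Over the 10 libraries, lower correlations were found for miR-351-5p and miR-503-5p. For the 12 pairs that join either to a member other than these 2, r lay between -0.017 and 0.45 and 0 passed, although their hairpins lie between those of miR-322 and miR-542. Between miR-351-5p and miR-503-5p themselves r was 0.59 and rho 0.55 (permutation adjusted p = 0.13 and 0.38). miR-503-5p rests on 22 to 40 reads per library and miR-351-5p on 472 to 756. That these r differ from the others was not tested.

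**Figure D4:**
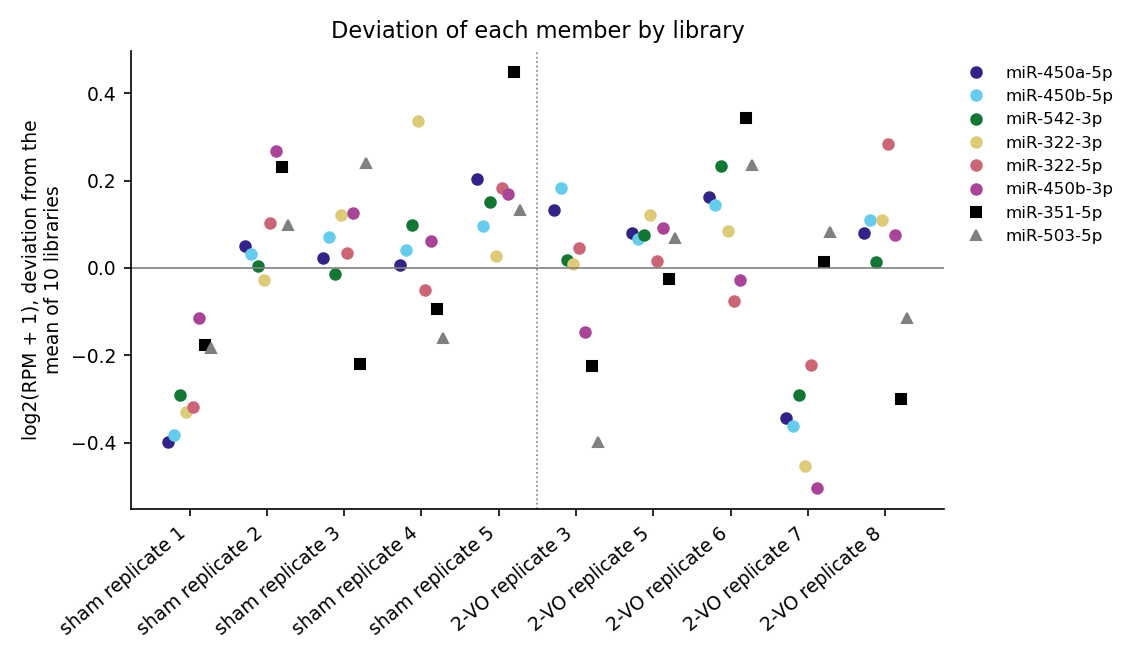
Deviation of log2(RPM + 1) from each member's mean over 10 libraries (vertical axis) in each library; round points are 6 members, squares miR-351-5p and triangles miR-503-5p. All 8 members lie below 0 in sham replicate 1 (miR-450a-5p at -0.40, miR-351-5p and miR-503-5p at -0.18), and the 6 do in 2-VO replicate 7 (miR-450b-3p at -0.50), where miR-351-5p is at 0.015 and miR-503-5p at 0.081.

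The number of pairs that passed depended on 2 libraries. Without sham replicate 1, and likewise without 2-VO replicate 7, 0 of the 28 pairs passed. With any other library left out 1 to 5 passed, the fewest without sham replicate 5 and the most without 2-VO replicate 6. With any 1 library left out, the lowest r was 0.95 for the miR-450 pair and 0.90 for miR-542-3p and miR-450a-5p. It was 0.72 for miR-322-3p and miR-542-3p and 0.66 for miR-322-5p and miR-450a-5p. Most members were low in sham replicate 1 and 2-VO replicate 7, so leaving both out narrows the range of levels and tends to lower r by itself. With both left out, which was chosen after the values were seen, r was 0.61 for miR-542-3p and miR-450a-5p (exact permutation p = 0.11, n = 8) and 0.65 for the miR-450 pair. In the same 8 libraries r was 0.14 for miR-322-3p and miR-542-3p, 0.19 for miR-322-5p and miR-450a-5p, and -0.39 for the arms of miR-322. The median r of the 28 pairs went from 0.61 to -0.041, while that of all 112101 pairs of the 474 miRNAs went from 0.29 to 0.25. The 2 libraries were not chosen by the levels of all 474, so values for all pairs are no like comparison here. An r of at least 0.7 was found for 9 of the 28 pairs, against 8.35% of all pairs, and for 1 of the 28 with both libraries left out, against 11% of all. That pair was miR-351-5p and miR-542-3p, whose r went from 0.45 to 0.71. In the 8 libraries r also went up from 0.34 to 0.60 for miR-351-5p and miR-450a-5p, and from 0.24 to 0.57 for miR-503-5p and miR-450b-3p, and 0 of the 28 pairs passed (exact permutation tests, adjusted over the 28).

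Other scalings changed the number of correlated pairs. Scaled to the listed miRNA reads, 8 of the 28 pairs of members had an r of at least 0.7, against 2.91% of all pairs. On that scale the median deviation of the members was -0.26 in sham replicate 1 and -0.18 in 2-VO replicate 7, but 0.23 in 2-VO replicate 3. With TMM factors 3 pairs passed, and 13 passed for deviations from the group means (permutation tests). These deviations were centred within each group but permuted over all 10 libraries, so their p may be too small.

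**Figure D5:**
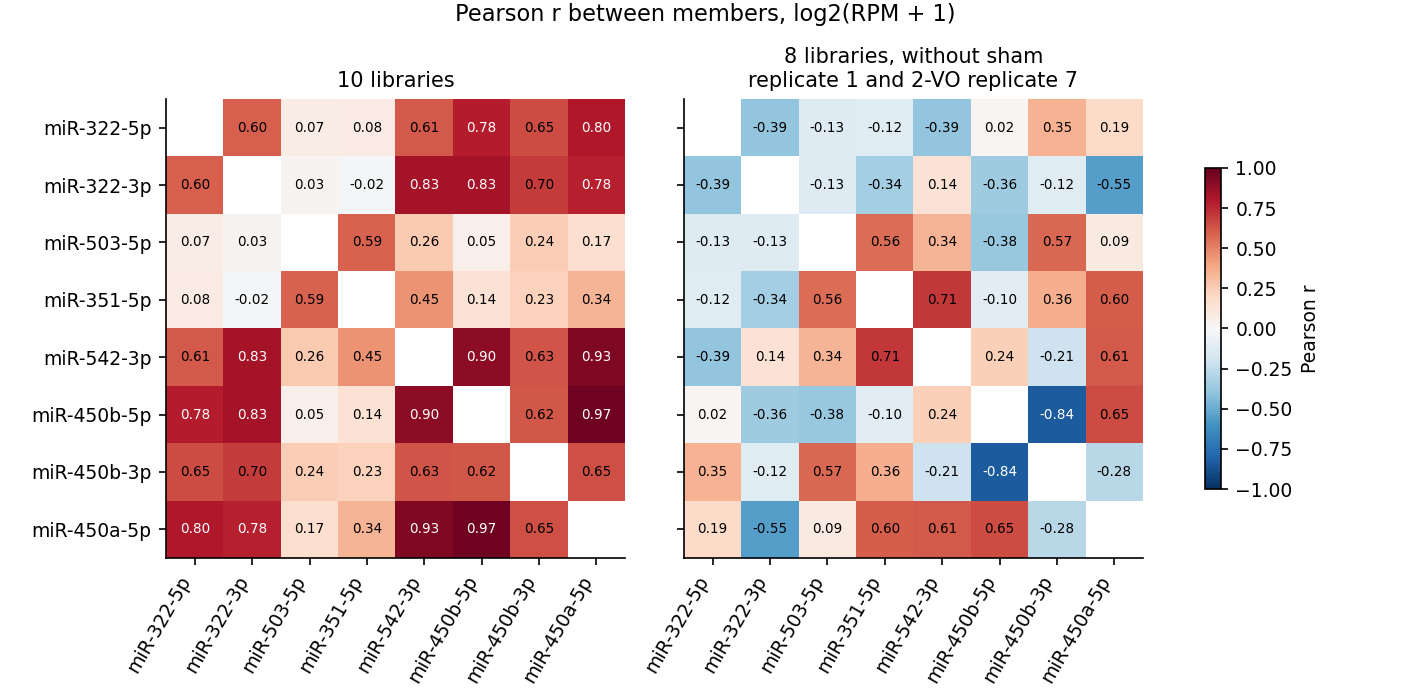
Pearson r of log2(RPM + 1) for each pair of the 8 members, over 10 libraries (left) and over 8 libraries without sham replicate 1 and 2-VO replicate 7 (right); colour runs from -1 to 1. The block of high r among miR-322, miR-542 and miR-450 on the left, up to 0.97, is mostly absent on the right, where miR-450b-5p and miR-450b-3p have r = -0.84.

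Among 333 other miRNAs that averaged 10 RPM or more, 5 were most like miR-450a-5p across the 10 libraries. miR-26b-5p had r = 0.90 and rho = 0.87 (permutation p = 6.2e-04 and 0.0020, adjusted p for r = 0.12 over the 333). miR-181a-5p (r = 0.87, rho = 0.65), miR-181b-5p (0.87, 0.72), the oligodendrocyte miRNA miR-338-3p (0.84, 0.73) and miR-195-5p (0.84, 0.70) followed, with permutation adjusted p of 0.12 to 0.14 for r. Without the 2 libraries farthest from the median, r was 0.32 to 0.64. The 5 were picked for a high r over all 10 libraries, so a lower r was likely in any case. Scaled to the listed miRNA reads, r over the 10 libraries ran from 0.81 for miR-195-5p to 0.92 for miR-338-3p. What this likeness rests on was not tested.

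Summed levels of 9 marker lists were set beside miR-450a-5p, and 0 had a correlation that passed (permutation tests, adjusted over the 9). The highest r were 0.66 for choroid plexus and ependyma (rho = 0.44, permutation p = 0.048 and 0.20, adjusted 0.22 and 0.48) and 0.59 for mesenchyme (rho = 0.72, adjusted 0.22 and 0.11). Epithelium had r = 0.58, oligodendrocytes 0.55, muscle 0.44, vessels 0.35, leukocytes 0.31, neurons 0.23 and red blood cells 0.055. Several signs turned with the scaling. Scaled to the listed miRNA reads r was -0.62 for neurons, -0.29 for red blood cells and -0.016 for vessels, and with TMM factors -0.58, -0.42 and -0.32, with leukocytes at -0.12. Epithelium passed under both scalings, at r = 0.85 and 0.86 (permutation adjusted p = 0.0066 and 0.0069). For deviations from the group means, choroid plexus and ependyma passed at r = 0.82 (permutation adjusted p = 0.013), where p may likewise be too small. The mesenchyme list, with 3 of 3 miRNAs listed, ran from 96.2 to 140.4 RPM in the sham group and from 92.1 to 151 RPM in the 2-VO group. The muscle list, with 4 of 4 listed, ran from 26.1 to 32.1 and from 22.5 to 36.2 RPM. The choroid plexus and ependyma list ran from 878 to 2036 and from 865 to 1207 RPM, with 6 of 6 listed. The epithelium list, in which miR-141-3p was at 0, was low, from 10.3 to 23.8 RPM in the sham group. It spread further in the 2-VO group, from 12.02 to 81.1 RPM. As deposited, its r ran from 0.48 to 0.75 with any 1 library left out. The part of its highest libraries in the r of 0.85 and 0.86 was not tested. In bulk tissue, fewer cells of a type and less RNA per cell cannot be told apart, and the part of other cell types in the members' levels was not tested.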

How the data were processed

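The table deposited by the authors gives RPM values, read numbers scaled to a library total, for mature miRNAs, with 1 column per library. bcl2fastq, BWA and the rat build rn6 are named in the submitters' processing notes. The sources used here do not give the annotation, the reads behind the total or the counting of reads that match several miRNAs. All 2303 listed values under 30 RPM were whole reads within 0.01 reads at a single total per library, the smallest standing for 10 reads. PCR copies count as reads, so counting errors cover counting only. RefSeq sequences are from GRCr8, and no coordinates are given because the build differs.

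Members and lists were chosen with earlier results of these data known. log2(RPM + 1) of the 474 miRNAs that averaged at least 1 RPM was fitted with limma 3.58.1 in R 4.3.3 (trend, no covariate, two-sided), with Benjamini-Hochberg adjustment over all of them and a threshold of 0.05. The fit was tested on simulated data with independent miRNAs and with changes larger than any seen for the members. That test does not cover changes as small as theirs. The arm ratio was fitted likewise over 132 hairpins. Named miRNAs were the members, the other arms of their hairpins, fixed seed relatives, the 5 most correlated with the most abundant member, and any that passed. Voom replaced the planned count model, which was not run because counts under 10 reads are not listed.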

Additional observations from a re-analysis of the deposited data

Results flagged for a closer look

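Of 50 groups of 5 values examined, 8 held a library whose gap to its nearest neighbour was over 0.71 of the group's range. Independent groups would give about 2.5 by chance, but these are not independent of each other. They include the miRNAs picked for their likeness to miR-450a-5p and the members' own sum. The 8 against 2.5 is therefore no measure of an excess. In 2-VO replicate 7, miR-322-3p was lowest (37.9 RPM, others 52.6 to 57.0), as were miR-450a-5p (120.0 RPM, others 161 to 171), miR-450b-5p (101 RPM, others 136 to 147), miR-26b-5p (659 RPM, others 794 to 850) and the summed RPM of the members (381, others 493 to 535). In sham replicate 1, miR-450b-5p was lowest (99.3 RPM, others 133 to 139). The 3p share of miR-503 was lowest in sham replicate 3 (64.0%, others 71.4% to 73.1%). miR-125a-5p, a seed relative of miR-351-5p, was highest in 2-VO replicate 6 (4993 RPM, others 3810 to 4078).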

How the results depend on the processing

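Numbers 3 and 5 occur in both groups, and the deviations of the same-numbered libraries had correlations of -0.058 and -0.18. No pairing was assumed, but shared numbers this few cannot exclude one. A fit with the replicate block, whose contrast rests on the 4 libraries with these numbers, called 8 of the 474 miRNAs, 0 members and 0 hairpins. Under this block the log2 fold changes were -0.078 for miR-322-5p, -0.022 for miR-542-3p, -0.0073 for miR-450a-5p, -0.047 for miR-15b-5p and -0.0088 for miR-26b-5p, and the arm ratio differences -0.070 for miR-322 and -0.16 for miR-503, each opposite in sign to the unblocked value, and for 0 of the 8 members did the 95% interval stay within 1.5-fold. Other pseudocounts, filters, scalings and tests, and each library left out, gave 0 members past the threshold. The sign also turned for miR-322-3p scaled to listed reads (0.0057), with TMM (0.011) and with median-of-ratios factors (0.0028), for miR-16-5p with TMM factors (0.0042) and for miR-181b-5p scaled to listed reads (0.053), with TMM (0.059) and with median-of-ratios factors (0.050). Leaving out 1 library at a time gave log2 fold changes of -0.059 to 0.077 for miR-322-5p, -0.14 to 0.056 for miR-322-3p, -0.12 to 0.042 for miR-503-5p, -0.17 to 0.026 for miR-351-5p, -0.050 to 0.096 for miR-542-3p, -0.048 to 0.14 for miR-450a-5p, -0.031 to 0.15 for miR-450b-5p and -0.26 to -0.10 for miR-450b-3p. The same ranges were -0.19 to 0.0010 for miR-181a-5p, -0.13 to 0.058 for miR-181b-5p, -0.029 to 0.25 for miR-338-3p and, for the arm ratio of miR-322, -0.018 to 0.12. Between 0 and 3 hairpins passed with a library left out, 3 without sham replicate 5 and 1 without 2-VO replicate 3. For the miR-450b arm ratio the range was 0.21 to 0.30, with 0.14 at a pseudocount of 5 and 0.22 under the replicate block. Of the member pairs, 0 to 5 passed with a library left out, 3 with TMM factors, 13 for deviations from group means, 0 with Spearman's rho and 0 with both sham replicate 1 and 2-VO replicate 7 left out, where r was -0.39 for the miR-322 arms and -0.84 for miR-450b-5p and miR-450b-3p, and miR-322-5p stood at -0.00079. With miR-450a-5p, 1 marker list passed scaled to listed reads (epithelium, r = 0.85), 1 with TMM factors (epithelium, r = 0.86) and 1 for deviations from group means (choroid plexus and ependyma, r = 0.82). For deviations from group means the permutation p may be too small. The causes of these shifts were not tested. A planned quasi-likelihood count model was not run. Depth limits miR-503-5p, miR-450b-3p and miR-450a-3p, which lie near the 10 reads under which nothing is listed.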
